A study of Homo sapiens with 3 samples.

Results

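The S100 genes encode small calcium-binding proteins of the EF-hand type, and 10 of them were followed here in KYSE510, a cell line from a human squamous cell carcinoma of the esophagus (ESCC). They were chosen by symbol: S100A2, S100A4, S100A6, S100A7, S100A8, S100A9, S100A10, S100A11, S100A14 and S100P, out of 19266 genes in each deposited table. The tables held 11 other S100 genes, which are described after these. The design was 3 samples, 1 per group: cells given lentivirus with short hairpin RNA 1 (sh1) or hairpin 2 (sh2) against the transcript TCONS_02256997, and cells given lentivirus with a scrambled hairpin (control). All 3 received the virus for 24 h and then 4 µM puromycin for 48 h, so that the control also carries infection and drug selection. The study's stated aim was to screen for targets of that transcript, which was not analysed here.

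S100 proteins usually pair up, and calcium opens a surface on the pair that grips target proteins inside the cell, such as annexins, myosin or ezrin. Several are also secreted and act on receptors such as RAGE (encoded by AGER), so that they serve as alarm signals or as antimicrobial, metal-binding proteins. Most of the genes lie side by side in the epidermal differentiation complex on chromosome 1, beside genes of the cornified envelope, and squamous epithelia are among the tissues where they are abundant.

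Each sample came with 3 numbered gene tables, treated as 3 libraries (n = 3 per group). Whether they are cultures, libraries or repeat runs is not given, so every SD, SE and adjusted p measures the spread between the tables of 1 sample, which may be technical, and none is a test between cultures. Total expected counts were 14660821 to 14770512 with sh1, 15759270 to 16092417 with sh2 and 15012961 to 15414591 in control. Levels are given as TPM (the authors' transcript abundance corrected for gene length), and differences as log2 fold changes ± SE of counts. All 10 genes passed the filter on low counts.

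All 10 genes had an entry in RefSeq's promoter table, and some shared a feature near the start. The table gives 250 bases before and 50 after each start (RefSeq, assembly GRCh38.p14, matched by gene ID; the expression files use hg19). The letters TATAAA, the core of a TATA box, began 28 to 31 bases before a start on the coding strand in S100A4, S100A7, S100A8, S100A9 and S100P. That is 5 of 10 members, while 2.59% of 11061 tested genes with a promoter entry had the match beginning between 40 and 20 bases before a start. Only these exact letters were searched, and S100A6 and S100A14 hold the near variant TATAAG shortly before a start. The 5 stretches shown belong to genes that moved at least 2-fold (S100A7, S100P) and genes that did not (S100A4, S100A8, S100A9). Each runs from base -45 to base -6, 5′ to 3′ on the coding strand, with TATAAA in capitals. S100A8 has 3 starts in the table, and the one shown has the match nearest to its start.
S100A7, chr1:153460657-153460696, minus strand: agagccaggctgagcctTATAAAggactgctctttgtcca
S100P, chr4:6693833-6693872, plus strand: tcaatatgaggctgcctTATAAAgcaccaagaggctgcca
S100A4, chr1:153545812-153545851, minus strand: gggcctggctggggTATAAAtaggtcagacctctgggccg
S100A8, chr1:153391079-153391118, minus strand: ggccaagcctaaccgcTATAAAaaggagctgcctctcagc
S100A9, chr1:153357809-153357848, plus strand: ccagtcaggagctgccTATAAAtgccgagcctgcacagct

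The whole 250 bases before the start are given for S100A7 and S100P, the genes with the greatest rise and the greatest fall among the 10 with sh1. Capitals again mark TATAAA.
S100A7, chr1:153460652-153460901, minus strand: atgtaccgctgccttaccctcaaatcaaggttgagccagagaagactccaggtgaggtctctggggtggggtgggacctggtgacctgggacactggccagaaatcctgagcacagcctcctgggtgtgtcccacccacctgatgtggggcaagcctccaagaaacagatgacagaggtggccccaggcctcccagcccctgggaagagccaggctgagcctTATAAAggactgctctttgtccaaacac
S100P, chr4:6693628-6693877, plus strand: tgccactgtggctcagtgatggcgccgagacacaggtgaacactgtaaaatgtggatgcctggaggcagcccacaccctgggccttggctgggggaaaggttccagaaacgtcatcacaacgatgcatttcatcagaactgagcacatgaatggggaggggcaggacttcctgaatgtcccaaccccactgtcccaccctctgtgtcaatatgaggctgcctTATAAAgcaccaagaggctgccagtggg

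The motif of AP-1, the FOS and JUN dimer, was searched as TGANTCA on both strands of the 300 bases. It was present in 1 of the 10 genes, S100A2, and in 7.57% of tested genes with an entry. The S100A2 match (capitals) lies at the first of the 2 starts listed for that gene.
S100A2, chr1:153565865-153565924, minus strand: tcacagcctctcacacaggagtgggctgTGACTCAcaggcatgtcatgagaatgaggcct
A C/EBP pattern, TTNNGNAA on both strands, matched 5 members (S100A6, S100A8, S100A9, S100A11 and S100P) and 33.7% of tested genes. An NF-kB pattern of GGG, 5 free bases and CC, on both strands and partly overlapping in GC-rich stretches, matched 8 members and 79.1% of tested genes. These are letter matches in a window and not binding sites.

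As a whole, the 10 genes did not move in 1 direction. With sh1, 4 rose (S100A2, S100A7, S100A9, S100A10), 3 fell (S100A6, S100A14, S100P) and 3 were not called at an adjusted p below 0.05 (edgeR's quasi-likelihood test, Benjamini-Hochberg adjustment over 13580 genes). That is 7 of 10 members, where 69.3% of all tested genes were called, 34.7% higher and 34.6% lower. With sh2, 4 rose (S100A2, S100A7, S100A10, S100A11), 4 fell (S100A4, S100A6, S100A14, S100P) and 2 were not called, against 68.5% of all genes called, 34.2% higher and 34.3% lower. Between the hairpins 9 of 10 differed, 5 higher and 4 lower with sh1, against 69.8% of all genes, 34.2% higher and 35.6% lower. Neither the number called against control nor its split therefore stood far from the background.

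Changes of at least 2-fold were few. With sh1 there were 2, a rise of S100A7 and a fall of S100P, where 9.15% of all genes passed that mark, 3.93% higher and 5.21% lower. With sh2 there were 0, where 7.75% of all genes did, 3.14% higher and 4.61% lower. The largest absolute log2 change of the 10 with sh2 was 0.68, that of S100A7 (0.67 in DESeq2). That is below the 2-fold mark, so the 0 holds whatever the limit on p and a looser limit is no further check. The same S100A7 and S100P differed at least 2-fold between the hairpins, where 8.28% of all genes did, 4.37% higher and 3.9% lower. The median log2 change of the 10 was 0.03 with sh1 and -0.06 with sh2, against 0.01 and 0.00 over all genes. Both hairpins were set against 1 control sample.

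**Figure D1:**
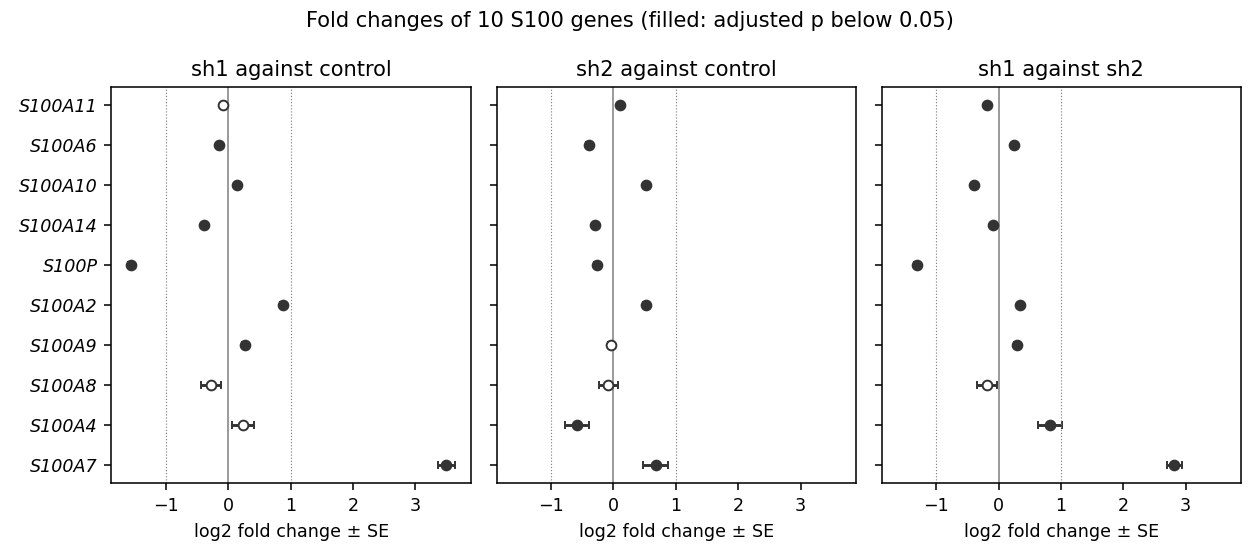
Log2 fold change ± SE (n = 3 libraries per group) of the 10 S100 genes in the 3 comparisons; filled points had an adjusted p below 0.05 and dotted lines mark 2-fold. S100A7 at 3.49 and S100P at -1.56 with sh1 lie outside the dotted lines, while with sh2 all 10 genes lie between them.

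S100A7, or psoriasin, is an antimicrobial, zinc-binding protein that squamous epithelia secrete in inflammation. Its gene (Entrez 6278) stood at 127, 151 and 128 TPM in the sh1 libraries, 16.4, 23.5 and 16.6 TPM in the sh2 libraries, and 14.6, 11.9 and 10.7 TPM in the control libraries. The sh1 libraries were far above the rest, and the sh2 libraries were all above control. S100A7 went up 11.25-fold with sh1 (log2 3.49 ± 0.13, edgeR adjusted p = 5.68e-20) and 1.6-fold with sh2 (log2 0.68 ± 0.20, edgeR adjusted p = 0.00392). The hairpins differed by 2.82 ± 0.12 (edgeR adjusted p = 9.52e-19). The rise with sh2 rests on 159 counts over its libraries against 95 over those of control, and without sh2 library 2 it was 0.48 and no longer called (edgeR adjusted p = 0.0562).

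S100A7 has a near-identical neighbour, S100A7A, and the deposited counts of the pair were fractional, so the split of reads is uncertain. S100A7A itself had 40 counts over the sh1 libraries, 13 with sh2 and 12 in control, too few to be tested. Counted together with its copies S100A7A and S100A7L2, the locus rose with both hairpins (log2 3.38 ± 0.13 with sh1, 0.62 ± 0.20 with sh2, edgeR adjusted p = 1.14e-19 and 0.00706). The rise of S100A7 was thus present with its copies included.

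S100A8 and S100A9 encode the partners of calprotectin, a metal-binding antimicrobial complex known above all from neutrophils and also made by stressed squamous cells. S100A9 (6280) had 280.2, 294 and 280.0 TPM with sh1, 231, 222 and 231 TPM with sh2, and 262, 233 and 241 TPM in control. The sh1 libraries lay above all others, and S100A9 rose by 0.26 ± 0.05 with sh1 (edgeR adjusted p = 1.33e-05). With sh2 the log2 change of S100A9 was -0.04 ± 0.05 and was not called (95% interval -0.13 to 0.06), although its TPM values with sh2 all lay below control; its CPM values overlapped. The hairpins differed by 0.30 ± 0.05 (edgeR adjusted p = 1.47e-06).

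S100A8 (6279) was much scarcer, at 21.0, 26.2 and 18.5 TPM with sh1, 23.2, 26.7 and 28.5 TPM with sh2, and 28.2, 21.2 and 32.2 TPM in control. All 3 groups overlapped. Its log2 changes were -0.27 ± 0.16 with sh1 (95% interval -0.59 to 0.05) and -0.08 ± 0.16 with sh2 (-0.39 to 0.22), and neither passed. Per length, S100A9 exceeded S100A8 by 13.4, 11.2 and 15.1 times in the sh1 libraries, 9.93, 8.30 and 8.11 times in the sh2 libraries, and 9.26, 11.02 and 7.47 times in the control libraries. S100A8 was thus the minor partner at the RNA level in all 9 libraries. RefSeq places S100A8 across S100A7A, and no source used here says if strand was counted. The deposited counts of S100A8 were whole numbers in all 9 libraries, so they show no reads divided between S100A8 and S100A7A. Whether reads of the overlap were assigned whole to the wrong gene was not tested.

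S100P binds ezrin, the linker of membrane and actin, inside the cell, and RAGE outside it. Of the 10 genes it alone lies outside chromosome 1, on chromosome 4. S100P (6286) had 138, 143 and 133 TPM with sh1, 345, 341 and 319.7 TPM with sh2, and 421, 422 and 423 TPM in control. The 3 groups were fully apart, in the order sh1, sh2, control from low to high. S100P fell 2.96-fold with sh1 (log2 -1.56 ± 0.05, edgeR adjusted p = 1.35e-22) and 1.2-fold with sh2 (log2 -0.26 ± 0.04, edgeR adjusted p = 7.59e-07). The difference between the hairpins was -1.30 ± 0.05 (edgeR adjusted p = 3.91e-20).

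The levels of S100A7 and S100P lay close together with sh1 and far apart in control. In control S100P ranked 5 of 10 by mean TPM and S100A7 last, at 422 ± 1.03 and 12.4 ± 2.00 TPM (SD, n = 3). With sh1 they were neighbours at 138 ± 5.15 TPM for S100P and 135 ± 13.6 TPM for S100A7, and the ranges of their libraries overlapped.

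**Figure D2:**
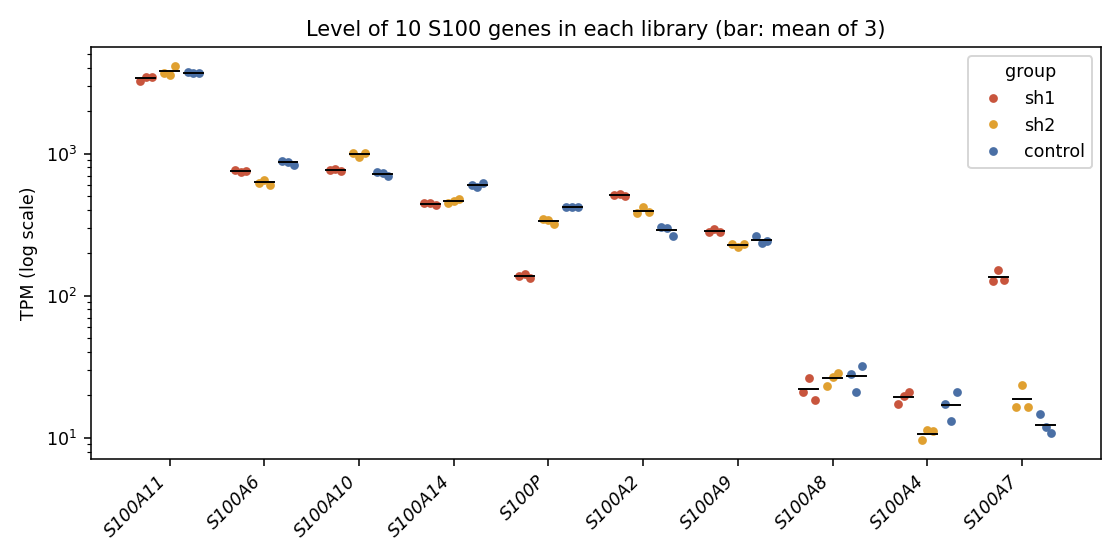
TPM on a log scale of the 10 S100 genes, ordered by mean TPM in control; each point is 1 library and each bar the mean of 3. S100A7 at 127 to 151 TPM with sh1 stands above its other libraries, and S100P at 133 to 143 TPM with sh1 stands below its own.

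S100A2 is a mainly nuclear S100 protein of the basal layer of squamous epithelia and a known target of the transcription factor p63. It (6273) had 510.4, 519.95 and 504 TPM with sh1, 379, 419 and 391 TPM with sh2, and 306, 299 and 263 TPM in control. No library of 1 group overlapped another group. S100A2 rose with both hairpins (log2 0.87 ± 0.05 with sh1, 0.52 ± 0.05 with sh2), and the hairpins differed by 0.35 ± 0.04 (edgeR adjusted p = 8.93e-17, 2.54e-11 and 2.37e-08, in that order). TP63, the gene of p63, moved the other way, at 214 ± 6.89 CPM (counts per library size, TMM-scaled) with sh1, 232 ± 6.82 CPM with sh2 and 518 ± 10.4 CPM in control (SD, n = 3). The log2 changes of TP63 were -1.28 ± 0.03 with sh1 and -1.16 ± 0.03 with sh2 (edgeR adjusted p = 3.47e-25 and 4.19e-24).

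S100A14, which is found at cell junctions of epithelia, fell with both hairpins. Its gene (57402) had 449, 449 and 436 TPM with sh1, 452, 466 and 480.4 TPM with sh2, and 600.04, 585 and 618 TPM in control. Both hairpins lay below control in every library. The log2 changes of S100A14 were -0.39 ± 0.03 with sh1 and -0.30 ± 0.03 with sh2 (edgeR adjusted p = 5.43e-12 and 1.18e-09). The hairpins differed by only -0.09 ± 0.03 (edgeR adjusted p = 0.0169), and that call was lost without sh1 library 1, sh1 library 3 or sh2 library 3, with -0.08, -0.07 and -0.06 in that order.

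S100A6, or calcyclin, binds annexins and the calcyclin-binding protein CACYBP. S100A6 (6277) had 772, 747 and 755 TPM with sh1, 623, 652 and 605 TPM with sh2, and 887, 875 and 837 TPM in control. The groups did not overlap, and sh2 was the lowest. S100A6 fell, with log2 changes of -0.15 ± 0.03 with sh1 and -0.40 ± 0.03 with sh2 (edgeR adjusted p = 0.000303 and 9.74e-12), and was higher with sh1 than with sh2 by 0.25 ± 0.03 (edgeR adjusted p = 1.25e-07). CACYBP, its partner, rose with both hairpins (log2 0.52 ± 0.04 with sh1, 0.69 ± 0.03 with sh2; edgeR adjusted p = 5.46e-14 and 6.11e-17).

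S100A4 binds non-muscle myosin and is known for its part in cell motility, and here it was scarce. S100A4 (6275) had 17.3, 19.8 and 21.2 TPM with sh1, 9.64, 11.3 and 11.2 TPM with sh2, and 17.3, 13.1 and 21.0 TPM in control. The sh2 libraries were below all others, while sh1 and control overlapped. S100A4 fell with sh2 (log2 -0.59 ± 0.20, edgeR adjusted p = 0.00912). With sh1 it had 0.24 ± 0.18, which did not pass (95% interval -0.11 to 0.59; 0.08 without control library 2 and 0.40 without control library 3), and the hairpins differed by 0.83 ± 0.19 (edgeR adjusted p = 0.000324). The call with sh2 was lost without control library 3 (-0.43, edgeR adjusted p = 0.0829). RefSeq places S100A4 across S100A5, which had 7 counts over the sh1 libraries, 10 with sh2 and 1 in control.

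S100A10 is the member whose calcium sites are inactive; it pairs permanently with annexin A2 (ANXA2) at the membrane, where the complex binds plasminogen. S100A10 (6281) had 764, 777 and 752 TPM with sh1, 1007, 944 and 1012 TPM with sh2, and 741, 725 and 689 TPM in control. The sh2 libraries stood highest and the sh1 libraries just above control. S100A10 rose with both hairpins (log2 0.14 ± 0.03 with sh1, 0.53 ± 0.03 with sh2; edgeR adjusted p = 0.00059 and 7.61e-15), and was lower with sh1 than with sh2, at -0.39 ± 0.03 (edgeR adjusted p = 6.97e-12).

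ANXA2, given because it is the fixed partner of S100A10 and with its values known, rose more with sh1, by 0.63 ± 0.03, than with sh2, by 0.235 ± 0.03 (edgeR adjusted p = 5.2e-19 and 3.97e-09; difference 0.39 ± 0.03, edgeR adjusted p = 4.75e-14). The ratio of ANXA2 to S100A10, per length, was 2.65, 2.675 and 2.76 in the sh1 libraries, 1.503, 1.665 and 1.53 in the sh2 libraries, and 1.89, 1.88 and 2.00 in the control libraries. The ratio was thus above control with sh1 and below it with sh2, with no overlap. PLAT, the plasminogen activator that the complex can bind, fell with both (log2 -0.78 ± 0.04 with sh1 and -0.80 ± 0.04 with sh2, edgeR adjusted p = 1.72e-17 and 7.26e-18).

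S100A11, a partner of annexin A1, was the most abundant of the 10. S100A11 (6282) had 3249, 3475 and 3436 TPM with sh1, 3673, 3576 and 4123 TPM with sh2, and 3726, 3680.3 and 3691 TPM in control. It ranked 15 to 16 among all genes of a library with sh1, 11 to 13 with sh2 and 10 to 11 in control. Its changes were slight: -0.08 ± 0.04 with sh1, which was not called (edgeR adjusted p = 0.0591), and 0.10 ± 0.04 with sh2 (edgeR adjusted p = 0.0155). The call with sh2 is weak, since it was lost in DESeq2 (adjusted p = 0.152), in limma on log2 FPKM, and without sh2 library 3 (0.03), control library 2 (0.09) or control library 3 (0.09). The hairpins differed by -0.18 ± 0.04 (edgeR adjusted p = 7.63e-05), and by -0.11 without sh2 library 3 (edgeR adjusted p = 0.000903). S100A11 has several pseudogene copies in RefSeq. Its deposited counts were whole numbers in all 9 libraries, unlike those of S100A7, so they show no split of reads with another gene. Whether reads of the copies were counted whole to S100A11 was not tested.

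Together the 10 genes made up 0.633% to 0.66% of all TPM with sh1, 0.668% to 0.722% with sh2 and 0.682% to 0.7% in control. Their summed level was 6329, 6601 and 6463 TPM in the sh1 libraries, 6759, 6682 and 7219 TPM in the sh2 libraries, and 7003, 6865 and 6825 TPM in the control libraries. The sh1 libraries were lowest, and sh2 overlapped control. S100A11 alone took 51.3% to 53.2% of the sum with sh1, 53.5% to 57.1% with sh2 and 53.2% to 54.1% in control.

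**Figure D3:**
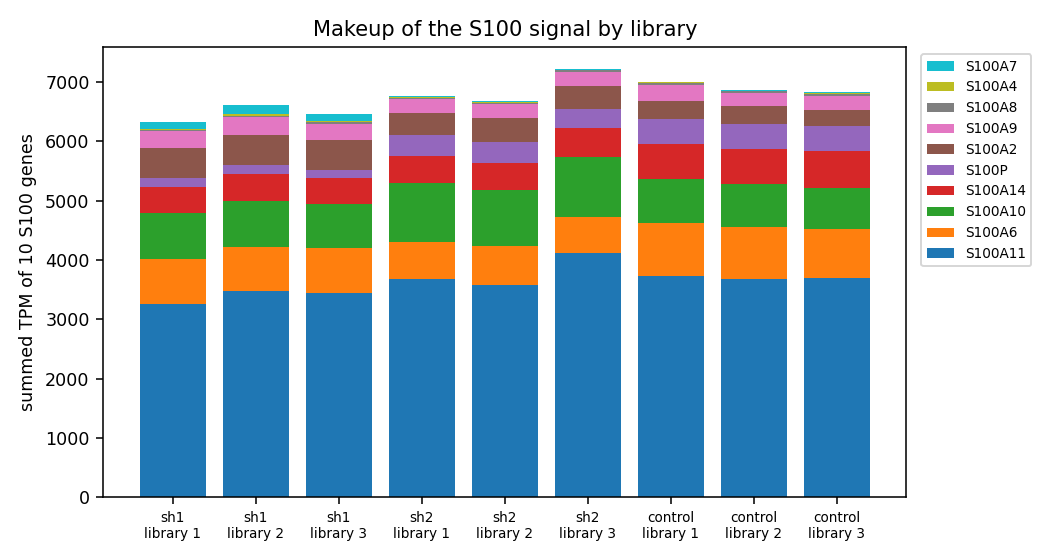
Summed TPM of the 10 S100 genes in each of the 9 libraries, stacked by gene with the most abundant in control at the bottom. S100A11 fills 51.3% to 57.1% of each bar, and the S100P band is thinner in the 3 sh1 libraries.

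By mean TPM the order in control was S100A11, S100A6, S100A10, S100A14, S100P, S100A2, S100A9, S100A8, S100A4 and S100A7, and only S100A4 and S100A7 had library ranges that overlapped. With sh2 the order was S100A11, S100A10, S100A6, S100A14, S100A2, S100P, S100A9, S100A8, S100A7 and S100A4, with overlap of S100A8 and S100A7. With sh1 it was S100A11, S100A10, S100A6, S100A2, S100A14, S100A9, S100P, S100A7, S100A8 and S100A4. There S100A10 overlapped S100A6, S100P overlapped S100A7, and S100A8 overlapped S100A4. S100A10 stood above S100A6 in all sh2 libraries and below it in all control libraries, and in the sh1 libraries the pair could not be ordered.

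The 9 members on chromosome 1 share 1 region, where some neighbours moved alike and others did not. The consecutive tested genes S100A6, S100A4 and S100A3 all fell with sh2 (log2 -0.40, -0.59 and -0.76) and were all higher with sh1 than with sh2 (by 0.25, 0.83 and 0.58). S100A7 rose most with sh1, while S100A8, the nearest tested S100 gene on one side, had -0.27 ± 0.16, and S100A6, the nearest on the other, had -0.15 ± 0.03. S100A10 and S100A11, which are adjacent among the S100 genes, had 0.53 and 0.10 with sh2. S100A2 rose with both hairpins, between S100A3, which fell with sh2 and had -0.18 ± 0.18 with sh1, and S100A16, which rose with both.

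**Figure D4:**
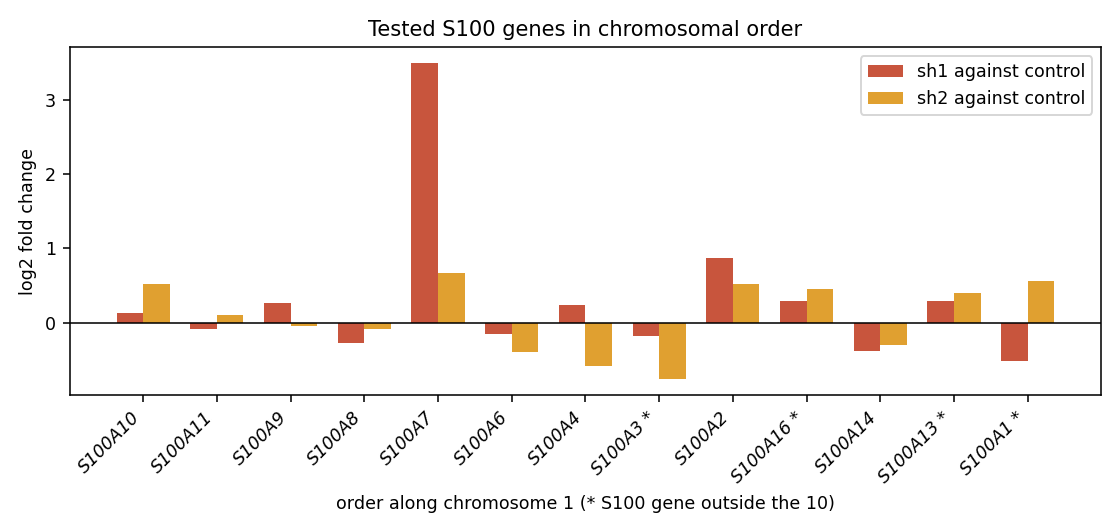
Log2 fold change against control of the 13 tested S100 genes of chromosome 1, in their order along the chromosome (rank, not distance), with sh1 left of sh2; asterisks mark genes outside the 10. The S100A7 bar with sh1 is at 3.49, and the bars of the other 12 genes with sh1 lie between -0.52 and 0.87.

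Of the 11 other S100 genes in the tables, 4 passed the filter on low counts: S100A1, S100A3, S100A13 and S100A16. S100A16 had 556 ± 16.2 TPM with sh1, 616 ± 19.2 TPM with sh2 and 470.5 ± 6.55 TPM in control (SD, n = 3), and rose by 0.29 ± 0.03 and 0.45 ± 0.03 with sh1 and sh2 (edgeR adjusted p = 3.73e-09 and 1.2e-13). S100A14, its neighbour, had a like level and moved the other way. S100A13 rose with both hairpins (log2 0.29 ± 0.06 with sh1, 0.40 ± 0.06 with sh2; edgeR adjusted p = 6.75e-05 and 2.95e-07). S100A1, which overlaps S100A13, was not called against control (log2 -0.52 ± 0.41 with sh1, 0.56 ± 0.34 with sh2). It differed between the hairpins by -1.08 ± 0.37 (edgeR adjusted p = 0.0107), on 27 counts over the sh1 libraries, 62 over those of sh2 and 40 over those of control. S100A1 was added with its values seen. A gene that scarce can pass the count filter largely through the group where it is high, which favours such a difference. S100A5, S100A7A, S100A7L2 and S100A12 had at most 40 counts over the libraries of a group and were not tested, and S100B, S100G and S100Z were at 0 counts in all 9 libraries.

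S100A7 had the greatest absolute change of the 10 with sh1 and between the hairpins. With sh2 its 0.68 ± 0.20 was close to the -0.59 ± 0.20 of S100A4, and their order turned without sh2 library 2 (0.48 for S100A7, -0.65 for S100A4) or control library 2 (0.64 and -0.75). Among 9940 genes with a mean of at least 10 CPM, the 3 whose group means lay closest to its own, after each gene was centred on its log2 mean over the 3 groups, were IGFBP5, CCN3 and HMGA2. IGFBP5 had 23.9 ± 1.90 CPM with sh1, 2.79 ± 0.193 CPM with sh2 and 3.77 ± 0.529 CPM in control (SD, n = 3). CCN3 had 66.5 ± 2.32, 17.5 ± 1.41 and 5.13 ± 0.567 CPM, and HMGA2 216 ± 8.25, 77.2 ± 2.38 and 46.8 ± 2.11 CPM, in the same order. The distances were 0.69, 0.80 and 0.90 on the log2 scale, over 3 group means, so the likeness is loose.

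Genes that work with S100 proteins moved in both directions. Of 16 listed partners, mostly intracellular but with the secreted PLAT among them, 15 were tested. With sh1 9 rose, 4 fell and 2 were not called, and with sh2 7 rose, 5 fell and 3 were not called (median log2 changes 0.20 and 0.07). PLAT is among those that fell with each hairpin. Any count of called genes in such a list is to be read against the shares over all tested genes, 34.7% higher and 34.6% lower with sh1, and 34.2% higher and 34.3% lower with sh2. ANXA6, an annexin bound by S100A6 and S100A11, rose by 1.44 ± 0.10 with sh1 and had -0.09 ± 0.12 with sh2, which did not pass; the hairpins differed by 1.53 ± 0.10 (edgeR adjusted p = 2.71e-14). ANXA11, a partner of S100A6, fell with both (log2 -1.02 ± 0.04 with sh1 and -0.23 ± 0.03 with sh2, edgeR adjusted p = 1.88e-20 and 7.6e-07).

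Of 8 receptors of secreted S100 proteins 7 were tested. With sh1 2 rose, 2 fell and 3 were not called, and with sh2 2 rose, 4 fell and 1 was not called (medians -0.01 and -0.14), where 69.3% and 68.5% of all tested genes were called. AGER, which encodes RAGE, was at 8.03 CPM with sh1, 7.83 CPM with sh2 and 8.11 CPM in control, and was not called with either. TLR4, the other classical receptor of calprotectin, was too low to be tested. BSG, encoding the surface glycoprotein basigin that binds S100A9, was abundant and rose with both hairpins (log2 0.60 ± 0.03 with sh1, 0.10 ± 0.03 with sh2; edgeR adjusted p = 7.79e-19 and 0.000945). ALCAM, an adhesion molecule, rose with sh1 and fell with sh2 (log2 0.43 ± 0.03 and -0.14 ± 0.03, edgeR adjusted p = 5.23e-15 and 3.19e-05). CD36, a fatty acid receptor, fell with both (log2 -0.28 ± 0.06 with sh1 and -1.03 ± 0.07 with sh2, edgeR adjusted p = 0.00018 and 1.84e-14), and so did MCAM, an adhesion molecule (log2 -0.39 ± 0.14 and -0.73 ± 0.14, edgeR adjusted p = 0.0117 and 3.49e-05).

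Of the list of 18 factors and cytokine receptors known upstream of S100 genes, all 18 were tested. With sh1 4 rose, 11 fell and 3 were not called, and with sh2 5 rose, 10 fell and 3 were not called (medians -0.28 and -0.24), against 34.7% of all tested genes higher and 34.6% lower with sh1, and 34.2% and 34.3% with sh2. The difference from those shares was not tested. Besides TP63, CEBPB, a factor of inflamed epithelium, fell with both (log2 -1.36 ± 0.03 with sh1 and -0.56 ± 0.03 with sh2, edgeR adjusted p = 9.75e-26 and 1.19e-16). FOS, an AP-1 subunit, fell with both (log2 -2.69 ± 0.07 with sh1 and -2.40 ± 0.07 with sh2, edgeR adjusted p = 6.05e-24 and 3.35e-23).

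The epidermal differentiation complex, in which the S100 genes of chromosome 1 lie, also holds genes of the cornified envelope. Of 22 of its genes outside the S100 family 11 were tested, and with each hairpin 6 rose, 1 fell and 4 were not called (medians 0.92 and 0.57). Over all tested genes 34.7% were higher and 34.6% lower with sh1, and 34.2% higher and 34.3% lower with sh2. The difference of the list from these shares was not tested. Genes scarce in control can pass the count filter through the group where they are high, which favours rises in such a list. SPRR2D, with 61 counts over the sh1 libraries, 8 with sh2 and 5 in control, is of this kind. So is HRNR, with 21, 54 and 25 counts in the same order. IVL, the envelope precursor involucrin, had 9.13 ± 0.681 CPM with sh1, 28.0 ± 1.62 CPM with sh2 and 1.78 ± 0.268 CPM in control (SD, n = 3), so that it was higher with sh2 than with sh1, unlike S100A7. SPRR1A, a small proline-rich envelope protein, rose with both hairpins (log2 2.57 ± 0.30 with sh1, 0.89 ± 0.38 with sh2, edgeR adjusted p = 1.02e-08 and 0.04). It had 133 counts over the sh1 libraries, 44 with sh2 and 23 in control, so the same limit of the filter holds for it. Its paralog SPRR1B rose by 0.92 ± 0.32 and 1.63 ± 0.28 (edgeR adjusted p = 0.0113 and 7.88e-06). SPRR1B was also scarce, with 62, 109 and 33 counts in the same order. SPRR2D rose by 3.56 ± 0.60 with sh1 (edgeR adjusted p = 4.8e-06), on 61 counts over the sh1 libraries against 5 over those of control, and was not called with sh2. Genes of this region whose level was that low are uncertain in size, and the SPRR paralogs may share reads.

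Markers of squamous epithelium were present in all groups, and their sum differed between them. All 10 of 10 were at 1 TPM or more in each group, and their summed level was 4865 to 4937 TPM with sh1, 6598 to 6799 TPM with sh2 and 8138 to 8232 TPM in control; KRT17, KRT5 and SFN were the largest. Not all followed the sum: DSC3, a desmosomal cadherin, averaged 72.9 TPM with sh1, 47.2 TPM with sh2 and 57.7 TPM in control, and KRT6A averaged 55.0 TPM with sh1, 77.2 TPM with sh2 and 55.6 TPM in control. In the same order, KRT5 averaged 1015, 976 and 1610 TPM and PKP1 1.36, 1.12 and 1.70 TPM, lowest with sh2. The means of KRT14, KRT17, TP63, DSG3, SFN and TRIM29 had the order of the sum. In bulk RNA of a cell line, fewer cells with a marker and less of its RNA per cell cannot be told apart. The part of this shift in the S100 values was not tested. Of 8 myeloid markers, checked because S100A8 and S100A9 are abundant in those cells, MPO was at 0 counts in all libraries and the sum was 22.1 to 24.2 TPM with sh1, 18.8 to 20.9 TPM with sh2 and 17.1 to 19.2 TPM in control, with LYZ the largest. CSF3R, a defining neutrophil receptor gene, had 0.697 TPM with sh1, 1.12 TPM with sh2 and 2.56 TPM in control. Others of the list were higher with sh1, as S100A9 was: ITGAM averaged 4.06 TPM with sh1, 1.59 TPM with sh2 and 1.32 TPM in control. In the same order, PTPRC averaged 3.63, 2.88 and 2.43 TPM, LYZ 11.85, 9.78 and 9.40 TPM, and CSF1R 0.813, 0.56 and 0.217 TPM. CD14 at 1.31, 2.72 and 1.62 TPM and FCGR3B at 0.44, 1.06 and 0.743 TPM were lowest with sh1, as was CSF3R. KYSE510 is a cell line, and the relation of these markers to the S100A9 level was not tested. Of 6 fibroblast markers only COL1A1 reached 1 TPM, and of 6 T and B cell markers 0 did. Endothelial markers summed to at most 10.9 TPM and melanocyte markers to at most 19.6 TPM in any library.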

How the data were processed

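RNA of 3 KYSE510 samples was sequenced on BGISEQ-500, per the labels. The build hg19 and the tools RSEM 1.2.12, HISAT2 2.0.4 and Bowtie2 2.2.5 are given, without roles, by the submitters' processing notes, which also list DESeq2 1.4.5. Per the file headers, the authors deposited for each gene an expected count, which need not be whole, a TPM and an FPKM. Symbols came from RefSeq by Entrez identifier (19223 of 19266).

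Expected counts were rounded and all 9 libraries entered 1 fit in R 4.3.3 with edgeR 4.0.16 (filterByExpr, TMM, quasi-likelihood, group as the only term; 13580 genes; adjusted p below 0.05). SE is the absolute log2 fold change over the square root of F, and 95% intervals are 1.96 SE either side. The test was tried on simulated counts. Tables of a sample differed by more than counting error (chi-square per degree of freedom 1.49 to 2.03). CPM values are TMM-scaled, and 3 counts are 0.186 to 0.205 CPM. Alternatives were DESeq2 1.42.0, limma 3.58.1 on log2 FPKM, no filter, no TMM, each library left out, a block on table number, and summed tables. No protein sequences were used here. The members and gene lists were chosen with earlier results of these data known. Named genes were the 10 members and, per list, the 2 called genes with the largest absolute change with each hairpin; AGER, TLR4, ANXA2 and S100A1 were added with values seen.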

Additional observations from a re-analysis of the deposited data

How the results depend on the processing

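The counts of S100 genes called, at an adjusted p below 0.05 or also at 2-fold, stayed within 1.5 times the reported count under all alternatives that gave a test: when a library was left out they were 7 to 9 for sh1, 6 to 8 for sh2, and 8 to 9 for the contrast of hairpins. S100A7 with sh1 ranged from 3.39 to 3.64 and S100P from -1.60 to -1.53 when a library was left out. The direction turned only for genes that were not called. S100A8 with sh2 had -0.08, but 0.0187 in limma on log2(FPKM + 1), with or without the FPKM filter, 0.0215 with a pseudocount of 0.1, and -0.23 to 0.0544 when a library was left out. S100A9 with sh2 ranged from -0.0828 to 0.0138 when a library was left out. S100A11 with sh1 was called without the count filter (edgeR adjusted p = 0.0388) and under the block (edgeR adjusted p = 0.0367). It was also called without sh1 library 2 (-0.105, edgeR adjusted p = 0.0294), sh2 library 2 (edgeR adjusted p = 0.041) or sh2 library 3 (edgeR adjusted p = 0.00715), with a range of -0.105 to -0.0427 when a library was left out. S100A8 was called with sh1 without sh1 library 2 or control library 2 (-0.41 each). The cause was not tested.

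Table numbers appear only in file names and did not pair the libraries, with correlations of same-numbered deviations of -0.067 to 0.032. A block on the number called 8 genes for sh1, 8 for sh2 and 9 for sh1 against sh2. With the tables of each sample summed, there is no test: S100A7 with sh1 had a log2 ratio of 3.497 (exact 95% Clopper-Pearson interval 3.19 to 3.82, counting error only) and S100P -1.56 (-1.66 to -1.47). The low counts of S100A4, S100A7 and S100A8 limit what could be seen in them, and with 1 sample per group the spread between cultures is unknown.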
